A study of Homo sapiens with 12 samples.

Results

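The comparison described here set choline salicylate (CS, the choline salt of salicylic acid) directly against KPT-330 (selinexor), a small molecule that blocks XPO1, the export receptor of the nucleus, which the study calls CRM1. Its members were the 3 libraries labelled CS and the 3 labelled KPT-330, 6 of 12 libraries in all, chosen by their labels and not by any measured value. The cells were JEKO-1, an established line grown from a human mantle cell lymphoma, and treatment lasted 48 h. The other 6 libraries were 3 from cells given DMSO, which serve here as the reference that tells which drug moved a gene, and 3 from cells given both drugs. The study asked whether salicylates add to the activity of CRM1 inhibition, and listed CS against the inhibitor as a comparison of its own. Polyadenylated RNA was sequenced, and the values are gene read counts, given below as CPM, the reads of a gene per 1000000 reads of the library after scaling; coordinates are those of hg38 as deposited.

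Several features limit these groups as models of the drugs. The cells are a single line. KPT-330 was dissolved in DMSO and CS was diluted in phosphate-buffered saline, so the control carries the solvent of KPT-330 and no library carries the solvent of CS alone. The sources used here do not give the concentrations behind these libraries. The study as a whole used KPT-330 at 0.05 to 1.0 µM and CS at 1.0 to 3.0 mM, and the drugs are compared here at doses that were not matched on any stated scale. It is not stated either whether libraries of 1 group stem from separate cultures. P-values therefore measure only the spread between libraries of a group, and that spread may be technical. For each gene it was estimated over all groups together, so a comparison of groups also drew on libraries outside it. In bulk RNA, fewer cells of a kind and less RNA per cell cannot be told apart.

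XPO1 carries proteins with a leucine-rich export signal, among them tumour suppressors, inhibitors of NF-kappaB and translation factors, out of the nucleus, and KPT-330 binds the cysteine in its cargo groove. Salicylate is the active part of aspirin-like drugs. It has long been studied for effects on NF-kappaB signalling and on mitochondrial and energy metabolism. Cyclin D1, placed under an immunoglobulin enhancer by a translocation, and the transcription factor SOX11 mark mantle cell lymphoma.

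Totals ran from 44871267 to 59490178 counts in the CS libraries and from 48439949 to 54865536 in the KPT-330 libraries. The KPT-330 libraries were closer to each other than those of any other group, with a biological coefficient of variation of 2.87% against 11.9% for CS and 15.5% for DMSO, although each pair of them still differed by more than sampling noise. The level of a gene also moved with its GC content within libraries: per 10 percentage points of GC, log2 levels shifted by 0.22 ± 0.02 (SD, n = 3) in KPT-330 relative to the mean of all libraries, by -0.10 ± 0.15 in CS and by -0.13 ± 0.21 in DMSO. Genes higher in CS had a median GC content of 44.5% and genes higher in KPT-330 one of 53.7%, beside 48.4% over all tested genes. B cell identity held in all groups: all 7 listed B cell and mantle cell lymphoma markers were tested, with a summed level of 2470 to 2785 CPM in CS, 2969 to 3012 in KPT-330 and 2163 to 2455 in DMSO.

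Of 19460 tested genes, 3925 were higher in CS (20.2%) and 4400 were higher in KPT-330 (22.6%) in edgeR's quasi-likelihood test, called at 0.05 after Benjamini-Hochberg adjustment. The 3 CS libraries all lay above the 3 KPT-330 libraries in 5334 genes (27.4%) and all below them in 6135 (31.5%). Scaled by library size alone, the same data gave 2926 higher in CS and 5490 higher in KPT-330, so that the share of calls in favour of CS went from 47.2% to 34.8%; the median log2 difference of all genes was then -0.13, against -0.04 in the reported fit. With levels corrected for GC content over all libraries the counts were 3824 and 5839, or 39.6% in favour of CS. The study's own limit, which also asks for a log2 fold change beyond 2, kept 53 genes higher in CS (0.272%) and 467 higher in KPT-330 (2.4%). Most of these 467 were genes with little RNA elsewhere: 419 of them lay under 1 CPM in CS, and 54 reached 5 CPM in KPT-330.

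**Figure D1:**
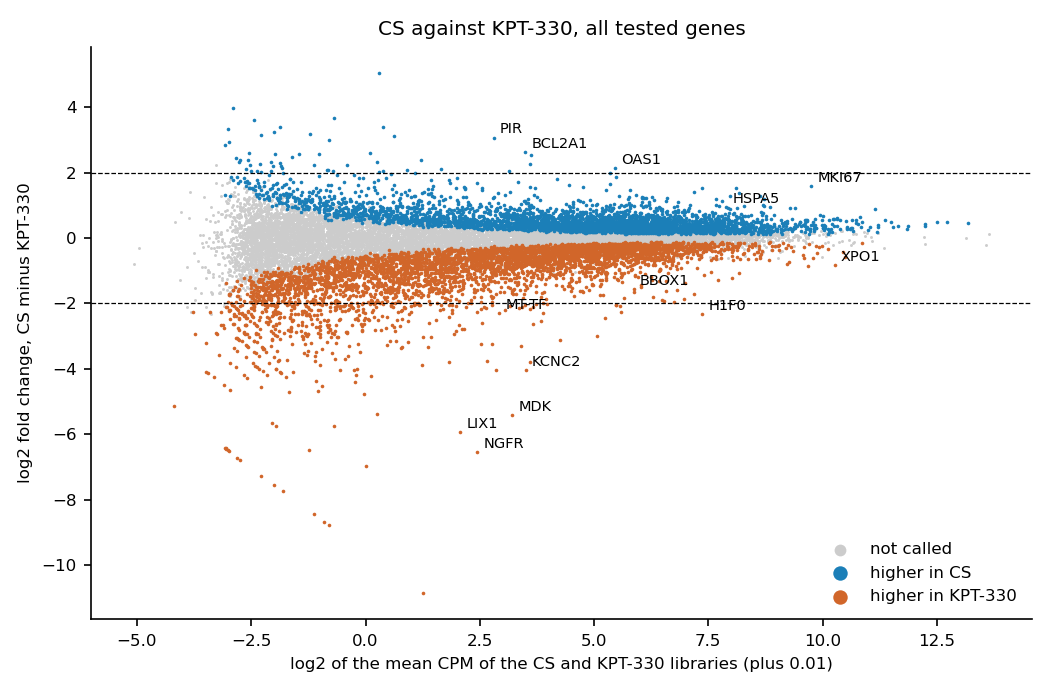
Each point is 1 tested gene, with the log2 of its mean CPM over the CS and KPT-330 libraries on the horizontal axis and its log2 fold change, CS minus KPT-330, on the vertical axis; blue and orange points were called, and dashed lines mark a log2 fold change of 2. The 467 genes called below the lower line outnumber the 53 above the upper one, and most of them lie at low mean levels.

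DMSO lay nearer to CS than to KPT-330 in most of the genes that separated the drugs. The position of DMSO was taken on the log2 scale as 0 where it equalled KPT-330 and 1 where it equalled CS. Its median over the 8325 called genes was 1.00, and DMSO lay nearer to CS in 7235 of them (86.9%). DMSO was at the CS level, within 0.25 of it on this scale, in 3855 genes and at the KPT-330 level in 380. It lay between the drugs in 1724 genes, beyond CS in 2258 and beyond KPT-330 in 108. Against DMSO itself, 731 genes were higher with CS (3.76%) and 998 lower (5.13%), while 4815 were higher with KPT-330 (24.7%) and 4631 lower (23.8%); these comparisons share the 3 DMSO libraries with each other. The total of 1729 for CS against DMSO was 760 without CS replicate 2, 896 without CS replicate 3, 817 without DMSO replicate 2, and 249 when only these groups entered the fit. It was 2582 without DMSO replicate 1, and 4114 and 4229 with the GC corrections over all libraries and within groups. The reported fit estimated the spread over all groups, also for CS against DMSO. The coefficient of variation was 2.87% in KPT-330, 11.9% in CS and 15.5% in DMSO. Counts of list members and calls of single genes against DMSO, given below, are those of the reported fit alone. Those of CS against DMSO carry this limit. Every list count between the drugs below is to be read beside the shares of all tested genes. These were 20.2% higher in CS and 22.6% higher in KPT-330. The position uses the same KPT-330 and CS libraries that called the genes, and it is given as a description.

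**Figure D2:**
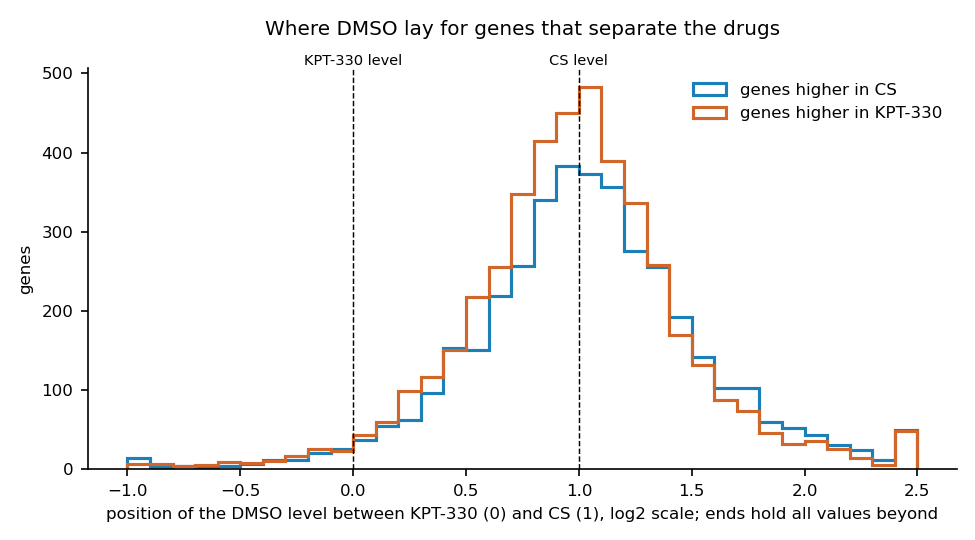
Number of genes called between CS and KPT-330 (vertical axis) by the position of their DMSO level between KPT-330 (0) and CS (1) on the log2 scale, for genes higher in CS (blue, 3925) and higher in KPT-330 (orange, 4400). Both curves peak near the CS level, and 86.9% of the genes lie nearer to CS than to KPT-330.

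The drug target was among the genes that separated the groups. XPO1 (chromosome 2, 61477849 to 61538626, with an exon overlap with a long noncoding gene) stood at 749.9, 863 and 923 CPM in DMSO, 943, 882 and 842 in CS and 1556, 1619 and 1551 in KPT-330. All KPT-330 libraries were above all others, and the CS and DMSO libraries overlapped. CS minus KPT-330 was -0.82 ± 0.07 (log2 ± SE, adjusted p = 2.23e-06), and CS minus DMSO 0.07 ± 0.07 (adjusted p = 0.631). Among the other 32 tested transport receptors and Ran cycle genes, the direction was mostly the other way: of all 33, 18 were higher in CS and 3 higher in KPT-330, where 20.2% and 22.6% of all tested genes were. KPNA2, an importin alpha that rises in dividing cells, was highest in DMSO at 427, 456 and 478 CPM, lower in CS at 366, 351 and 345 and lowest in KPT-330 at 149, 143 and 145, a difference between the drugs of 1.28 ± 0.05. RANBP2, the large nucleoporin of the cytoplasmic filaments, differed by 0.66 ± 0.08 and KPNA3, another importin alpha, by 0.59 ± 0.07, both higher in CS. The median over the list was 0.19 against -0.04 for all genes.

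The 3 genes most in favour of KPT-330 were nearly silent in both CS and DMSO. NGFR, a neurotrophin receptor of the TNF receptor family (chromosome 17, 49495293 to 49515017), was read at 0.0616, 0 and 0.0970 CPM in DMSO, 0.0230, 0.0827 and 0.206 in CS and 10.1, 11.1 and 11.2 in KPT-330. LIX1, on chromosome 5 at 97091867 to 97142872, was at 0.0411, 0.196 and 0.0970 CPM in DMSO, 0.138, 0.0620 and 0.189 in CS and 8.22, 8.26 and 8.29 in KPT-330. MDK, which encodes the heparin-binding growth factor midkine, was at 0.226, 0.0734 and 0.0970 CPM, 0.368, 0.331 and 0.550 and 17.0, 18.2 and 19.0 in the same order. In all of them every CS and DMSO library lay under 1 CPM and every KPT-330 library above 5. CS minus KPT-330 was -6.55 ± 0.34 for NGFR, -5.93 ± 0.26 for LIX1 and -5.41 ± 0.25 for MDK, with adjusted p-values of 1.54e-08, 4.85e-09 and 6.19e-09. MDK was also higher in CS than in DMSO, by 1.61 ± 0.42 (adjusted p = 0.0313). SLC2A4RG, a regulator of the GLUT4 gene whose exons overlap those of ZBTB46, followed with -4.05 ± 0.31. Further named genes higher in KPT-330 were SH3D21, MTSS1L, the calpain CAPN5, GOLGA7B and DIXDC1, with log2 differences from -3.79 to -3.13.

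The genes highest in CS relative to KPT-330 were mostly genes near their DMSO level in CS and lower in KPT-330. BCL2A1, an anti-apoptotic BCL2 relative and NF-kappaB target (chromosome 15, 79960889 to 79971446), had 19.3, 21.7 and 23.8 CPM in DMSO, 20.5, 19.8 and 18.0 in CS and 2.68, 3.56 and 3.24 in KPT-330. SLC7A11, the cystine importer on chromosome 4 at 138164097 to 138242349, had 23.02, 24.2 and 28.0, 22.9, 20.3 and 19.3 and 3.44, 2.89 and 4.41 CPM; its exons overlap an antisense gene, whose reads cannot be told apart here. OAS1, an interferon-induced enzyme that senses double-stranded RNA, had 70.2, 66.4 and 66.2, 69.4, 71.2 and 75.1 and 17.4, 15.8 and 16.2 CPM. No KPT-330 library of these genes came near the others. CS minus KPT-330 was 2.62 ± 0.12, 2.54 ± 0.14 and 2.13 ± 0.06, and none of them passed the test between CS and DMSO (adjusted p of 0.466, 0.221 and 0.395). The growth factor BMP3 (2.25 ± 0.10), the ganglioside enzyme B4GALNT1 (2.06 ± 0.14), the B cell Fc receptor-like gene FCRL2 (1.99 ± 0.08) and the zinc finger factor HIVEP1, which overlaps a noncoding gene (1.85 ± 0.08) were likewise called lower in KPT-330 than in DMSO and not called between CS and DMSO, as was SSPN, the dystrophin-associated protein sarcospan, whose exons overlap BHLHE41 (2.11 ± 0.17).

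**Figure D3:**
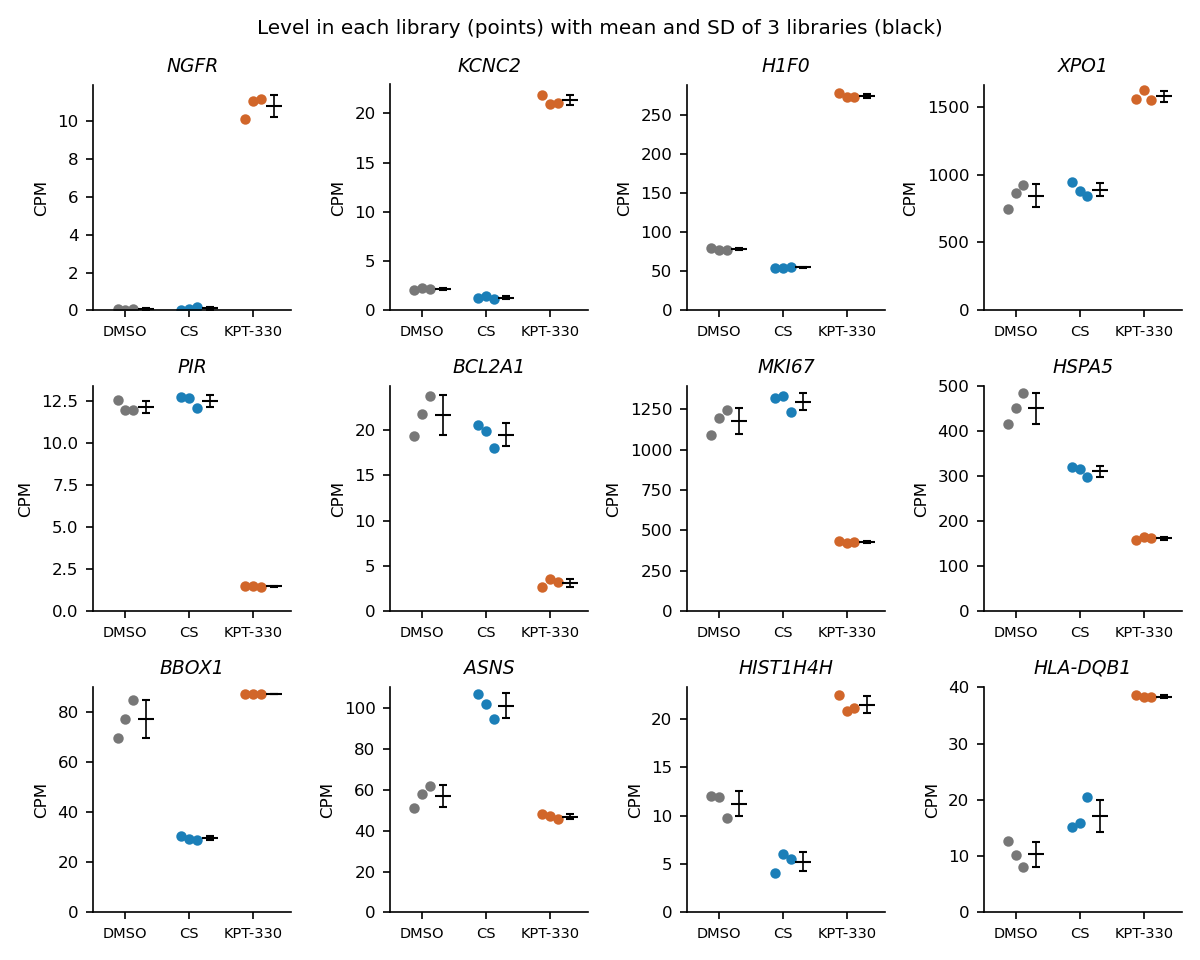
CPM of 12 genes in each DMSO, CS and KPT-330 library (points), with the mean and SD of the 3 libraries in black; every vertical axis starts at 0. NGFR, KCNC2 and H1F0 are highest in KPT-330, PIR, BCL2A1 and MKI67 are lowest in KPT-330, and BBOX1 and ASNS are set apart by the CS libraries.

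A smaller set differed between the drugs with DMSO at the KPT-330 level, so that CS was the group that lay away from DMSO. These genes were chosen by the position of DMSO, and a call between CS and DMSO was not asked for. BBOX1, the last enzyme of carnitine synthesis (chromosome 11, 27040725 to 27127809), was at 70.0, 77.3 and 84.8 CPM in DMSO and 87.4, 87.5 and 87.3 in KPT-330, and at 30.5, 29.4 and 29.2 in CS. The CS libraries lay below all others without overlap, with CS minus KPT-330 at -1.56 ± 0.07 (adjusted p = 7.39e-09) and KPT-330 minus DMSO at 0.18 ± 0.07 (adjusted p = 0.0575). NAV2, a neuron navigator gene, was at 4.17, 4.92 and 4.12 CPM in DMSO, 2.05, 2.17 and 2.49 in CS and 4.87, 5.19 and 5.30 in KPT-330. On the higher side, CCR6, a chemokine receptor of B cells, was at 2.44, 2.10 and 2.42 CPM in DMSO, 1.92, 1.94 and 2.40 in KPT-330 and 5.71, 5.21 and 4.23 in CS (identifier ENSG00000112486). CS minus KPT-330 was 1.27 ± 0.18 for CCR6 and -1.19 ± 0.12 for NAV2. CARD16, a caspase-1 regulator, was also higher in CS, by 0.83 ± 0.19. PTPN6, the phosphatase SHP-1, was higher by 0.65 ± 0.19 (adjusted p = 0.016), but lost its call in 5 of the alternatives, among them scaling by library size alone. CD80, a costimulatory ligand whose exons overlap TIMMDC1, was at 7.95, 8.10 and 8.78 CPM in DMSO, 8.62, 8.59 and 9.99 in KPT-330 and 6.46, 5.93 and 5.67 in CS, a difference of -0.59 ± 0.13 (adjusted p = 0.00198).

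In a further set the drugs moved a gene in opposite directions, with the DMSO libraries between the groups. KCNC2, a voltage-gated potassium channel gene on chromosome 12 at 75040077 to 75209868, went from 2.09, 2.25 and 2.21 CPM in DMSO down to 1.27, 1.45 and 1.17 in CS and up to 21.9, 21.0 and 21.1 in KPT-330. H1F0, the linker histone H1.0 of non-dividing cells (chromosome 22, 37805093 to 37807436), went from 80.3, 77.9 and 77.4 to 54.6, 54.8 and 55.8 in CS and 278, 273 and 273 in KPT-330. CADM1, an adhesion molecule, went from 10.1, 11.3 and 10.96 to 7.29, 8.12 and 6.96 and 60.0, 58.9 and 58.6. The 3 libraries of each group stood clear of both other groups in all of them, and both drugs passed the test against DMSO. Both traits were conditions for choosing the genes of this set, and so are no further evidence. CS minus KPT-330 was -4.04 ± 0.10, -2.32 ± 0.04 and -2.99 ± 0.08. PLCB4, DHRS2 and APOBEC2 (which overlaps OARD1) had the same order, with differences of -2.30 ± 0.11, -3.31 ± 0.14 and -3.24 ± 0.18. The reverse order, raised by CS and lowered by KPT-330, was seen in TLR6, a pattern receptor that overlaps TLR1 (1.65 ± 0.08), VEGFA, the vascular growth factor (1.57 ± 0.13), SPP1, or osteopontin (1.56 ± 0.06), the potassium channel KCNN3 (1.47 ± 0.06), PTAFR, the receptor of platelet-activating factor (1.79 ± 0.18), and CLYBL (1.54 ± 0.16). SPP1, for example, was at 32.4, 34.4 and 32.3 CPM in DMSO, 40.8, 41.1 and 39.2 in CS and 13.6, 14.2 and 13.2 in KPT-330.

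Mitotic genes were almost all higher in CS than in KPT-330. Of 38 tested genes of G2, mitosis and the spindle, 32 were higher in CS and 1 was higher in KPT-330. Over all tested genes these shares were 20.2% and 22.6%. The median log2 difference of the list was 0.60. DMSO lay nearer to CS in all 33 called: 35 of the 38 were lower in KPT-330 than in DMSO, where 23.8% of all tested genes were, and 4 were lower in CS, where 5.13% were. Against DMSO, 1 was higher in KPT-330 (24.7% of all genes) and none in CS (3.76% of all genes). MKI67, the proliferation antigen Ki-67 (chromosome 10, 128096659 to 128126385), was at 1092, 1192 and 1245 CPM in DMSO, 1319, 1333 and 1235 in CS and 433, 419.7 and 430.0 in KPT-330. The CS and DMSO libraries overlapped and the KPT-330 libraries lay far below both, and CS minus KPT-330 was 1.60 ± 0.06 (adjusted p = 1.43e-09). The centromeric histone CENPA, which overlaps SLC35F6, and the kinetochore proteins CENPF and CENPE differed by 1.48 ± 0.06, 1.28 ± 0.08 and 1.09 ± 0.08. PLK1, a mitotic kinase, and CDC20, an activator of the anaphase-promoting complex, did not pass the test, at 0.19 ± 0.10 and 0.22 ± 0.11 (adjusted p = 0.149 and 0.125); with either GC correction both passed, higher in CS. The spindle checkpoint gene BUB3, named here after its value was seen, was the member higher in KPT-330 (-0.43 ± 0.04).

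Promoters of mitotic genes often hold a cell cycle homology region (CHR), bound by the MuvB complexes that repress these genes in resting cells and activate them in G2. The letters TTTGAA, searched on both strands of the 300 bases from 250 before to 50 after the RefSeq start site, were in 22 of the 31 mitotic genes with a promoter in the table (71.0%) and in 15.4% of 27305 promoters. The promoter of MKI67, the member with the greatest difference, is shown with both matches in capitals, at chr10:128126374-128126673 on the minus strand of GRCh38.p14; the matches start 47 and 29 bases before the start site. A match describes the letters and is no evidence of binding.
MKI67: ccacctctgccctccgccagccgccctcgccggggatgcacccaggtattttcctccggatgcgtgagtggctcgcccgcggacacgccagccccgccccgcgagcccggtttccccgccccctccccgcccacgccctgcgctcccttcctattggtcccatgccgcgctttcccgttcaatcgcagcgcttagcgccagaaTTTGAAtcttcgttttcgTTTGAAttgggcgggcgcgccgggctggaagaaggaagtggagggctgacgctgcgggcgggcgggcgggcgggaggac

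The S phase and repair programmes did not share this one-sidedness between the drugs. Against DMSO, 20 of 50 replication and G1/S genes were lower in KPT-330 and 8 higher, where 23.8% and 24.7% of all genes were. In CS, 7 of them were lower and none higher, where 5.13% and 3.76% of all genes were. Of 35 recombination and Fanconi genes, 12 were lower and 2 higher in KPT-330 than in DMSO. Of 50 replication and G1/S genes, 12 were higher in CS and 10 higher in KPT-330, and the median was -0.02. These shares, 24% and 20%, were near the 20.2% and 22.6% of all tested genes. The 10 became 19 with either GC correction, 15 with library-size scaling, 4 with DESeq2, 3 without CS replicate 2, 5 without KPT-330 replicate 2 and 6 without KPT-330 replicate 1 or 3, while 8 to 15 were higher in CS under the same settings. CCNA2, the S and G2 phase cyclin A2 whose exons overlap EXOSC9, was at 255, 288 and 324 CPM in DMSO, 262, 237 and 220.2 in CS and 152, 153 and 149 in KPT-330, a difference of 0.66 ± 0.09. CCNE2, a G1/S cyclin that overlaps INTS8, went the other way with 8.89, 10.8 and 12.3, 11.5, 10.3 and 9.64 and 21.9, 19.5 and 21.6 CPM, called higher in KPT-330 (adjusted p = 1.55e-05). Among 35 genes of homologous recombination and the Fanconi anaemia pathway, 12 were higher in CS and 5 in KPT-330 (34.3% and 14.3%). This balance was 9 to 13 after a GC correction over all libraries and 9 to 8 with library-size scaling. The 5 became 1 without CS replicate 2, 2 without KPT-330 replicate 2 and 3 without any 1 of the other CS and KPT-330 libraries. BRCA2, a mediator of homologous recombination, led with 1.01 ± 0.08, from 402, 474 and 504 CPM in DMSO, 596, 557 and 521 in CS and 273, 281 and 275 in KPT-330, while the Fanconi core gene FANCB, which overlaps the pseudogene NPM1P9, and the nuclease partner EME1, which overlaps LRRC59, differed by 0.53 ± 0.10 and 0.50 ± 0.06. RAD50 and FANCI did not pass (-0.12 ± 0.08 and 0.08 ± 0.08), and FANCI took the other sign under the GC correction. Of 19 checkpoint genes, 6 were higher in CS and 3 in KPT-330 (31.6% and 15.8%). The replication checkpoint kinase ATR and its mediator CLSPN were higher in CS, by 0.51 ± 0.08 and 0.56 ± 0.08, as was the clamp subunit HUS1, by 0.42 ± 0.05, whereas the clamp subunit RAD1 was lower (-0.47 ± 0.05). ATR and CLSPN overlap noncoding genes.

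Replication-dependent histone genes separated the drugs in the opposite sense, and here CS was the group that lay away from DMSO. These genes make histones in S phase, and their mature mRNAs normally end in a stem-loop without a poly(A) tail, so a polyadenylated library holds only a part of them. Of 50 tested, 31 were higher in KPT-330 and 3 in CS, where 22.6% and 20.2% of all tested genes were. The median difference was -0.98. DMSO lay nearer to CS in only 7 of the 34 called. Against DMSO, 28 of the 50 were lower in CS and none was higher by edgeR's test, where 5.13% and 3.76% of all genes were. In KPT-330, 12 were lower and 8 higher than in DMSO, where 23.8% and 24.7% of all genes were. HIST1H1D, a linker histone on chromosome 6 at 26234268 to 26234933, was at 11.2, 9.47 and 9.53 CPM in DMSO, 3.63, 4.01 and 4.47 in CS and 17.0, 17.4 and 17.8 in KPT-330, with CS minus KPT-330 at -2.10 ± 0.11. HIST1H4H was at 12.1, 11.9 and 9.75, 4.12, 6.06 and 5.53 and 22.4, 20.9 and 21.1 CPM, a difference of -2.03 ± 0.14, and HIST1H2BO differed by -1.99 ± 0.21. HIST1H3A was read 3 times in CS, 40 times in KPT-330 and 19 times in DMSO, a ratio of KPT-330 to CS of 13.4 once library sizes were allowed for (95% exact interval 4.25 to 67.5, counting error only). HIST1H4I and HIST1H2AG did not pass the test. Many of these genes are near-identical copies, and reads could be split between them.

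**Figure D4:**
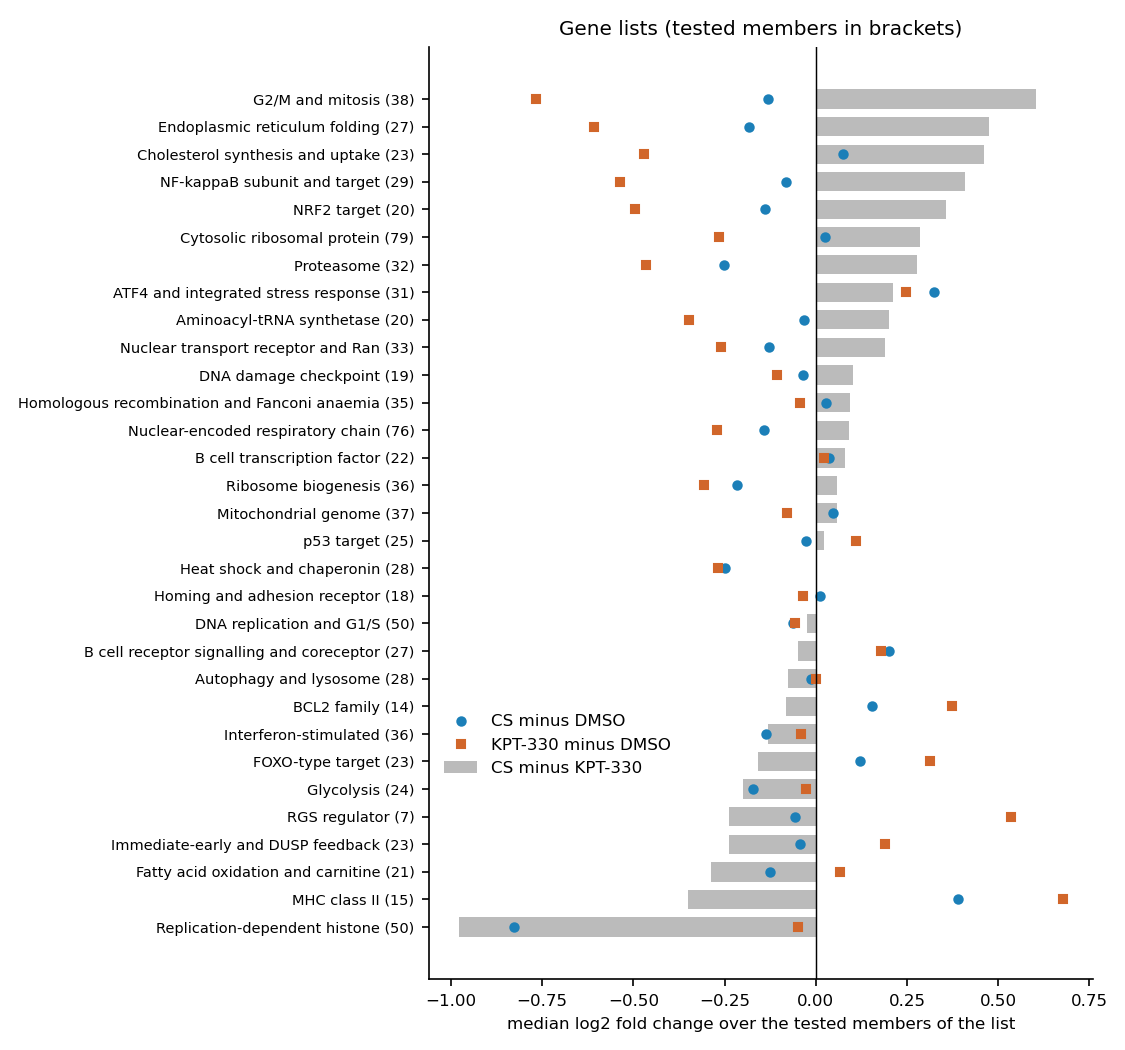
Median log2 fold change over the tested members of each of 31 gene lists, with CS minus KPT-330 as grey bars, CS minus DMSO as blue circles and KPT-330 minus DMSO as orange squares. In the G2/M list the orange square lies at -0.77 and the blue circle at -0.13, and in the histone list the square lies at -0.05 and the circle at -0.83; the circles and squares share the DMSO libraries.

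Endoplasmic reticulum folding genes, which fold and quality-check secreted and membrane proteins, were mostly higher in CS than in KPT-330, and many of them were lower with either drug than in DMSO. Of 27 tested, 18 were higher in CS and 3 in KPT-330, where 20.2% and 22.6% of all tested genes were. The median difference was 0.47. Against DMSO, 10 were lower in CS and 21 lower in KPT-330, where 5.13% and 23.8% of all tested genes were. HSPA5, the chaperone BiP (chromosome 9, 125234853 to 125241330), was at 414, 452 and 483 CPM in DMSO, 320.2, 315 and 297 in CS and 159, 165 and 163 in KPT-330. The groups formed 3 steps without overlap, with CS minus KPT-330 at 0.94 ± 0.06 and CS minus DMSO at -0.53 ± 0.06. XBP1, a transcription factor of the unfolded protein response, was at 20.4, 21.7 and 22.5 CPM, 20.9, 19.7 and 17.9 and 8.64, 9.39 and 7.98, a difference of 1.17 ± 0.09 between the drugs; its CS and DMSO libraries overlapped. HERPUD1, part of the degradation machinery, and the calcium-binding chaperone CALR differed by 0.96 ± 0.06 and 0.71 ± 0.05. ATF6, a sensor of the same response, did not pass (-0.13 ± 0.08, adjusted p = 0.2), but passed with a lower level in CS under library-size scaling and both GC corrections.

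The endoplasmic reticulum stress element, CCAAT and CCACG with 9 bases of any kind between them, is read by NF-Y together with ATF6 and XBP1. It was found, on either strand, in 6 of the 24 folding genes with a promoter in the table (25%), against 0.08% of all promoters. Those 6 were CALR, CANX, CRELD2, HSP90B1, HSPA5 and XBP1, of which CANX was called higher in KPT-330 and the others higher in CS. The promoter of XBP1, at chr22:28800520-28800819 on the minus strand of the same build, holds the element on the sense strand from 52 to 34 bases before the start site (capitals).
XBP1: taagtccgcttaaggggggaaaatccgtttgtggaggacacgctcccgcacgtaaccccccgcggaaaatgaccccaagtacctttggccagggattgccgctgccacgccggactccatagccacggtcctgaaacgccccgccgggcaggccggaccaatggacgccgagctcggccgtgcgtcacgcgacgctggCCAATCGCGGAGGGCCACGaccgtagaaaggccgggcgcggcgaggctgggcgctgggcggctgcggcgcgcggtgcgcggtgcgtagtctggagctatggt

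The amino acid stress programme of ATF4 was divided. ATF4 is translated when the integrated stress response slows general translation, and its targets import and make amino acids. Of 31 tested genes, 12 were higher in CS and 7 higher in KPT-330, with a median of 0.21. These were 38.7% and 22.6%, beside 20.2% and 22.6% of all tested genes. Against DMSO, 11 were higher and 2 lower in CS, where 3.76% and 5.13% of all genes were, and 10 were higher and 4 lower in KPT-330, where 24.7% and 23.8% were. ASNS, asparagine synthetase (chromosome 7, 97852118 to 97872542), was raised by CS and lowered slightly by KPT-330, with 51.1, 57.7 and 61.9 CPM in DMSO, 107, 102 and 94.4 in CS and 47.9, 46.9 and 45.7 in KPT-330, and a difference of 1.11 ± 0.07. CHAC1, which degrades glutathione, was low throughout, at 0.329, 0.269 and 0.0727 CPM in DMSO, 1.04, 1.18 and 1.77 in CS and 0.419, 0.396 and 0.472 in KPT-330, and differed by 1.63 ± 0.34 (adjusted p = 0.00172). DDIT3, the pro-apoptotic factor CHOP, went the other way, at 34.2, 34.1 and 32.9 CPM, 47.0, 42.9 and 42.6 and 99.4, 90.4 and 93.5, a difference of -1.10 ± 0.06; its exons overlap those of MARS and MBD6. ATF4 itself, named here outside the naming rule after its values were seen, was at 175, 185 and 181, 226, 225 and 223 and 186, 173 and 179.8 CPM and differed by 0.32 ± 0.05. SHMT2 and ALDH18A1, mitochondrial enzymes of serine and proline metabolism, did not pass. With library-size scaling the list was even, at 8 in each direction, with a GC correction over all libraries it was 16 to 5, and with the stricter filter, which tested 29 of the genes, the median was 0.018.

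The C/EBP-ATF response element, TGATGNAAN, searched on both strands, was in 5 of 26 ATF4-list promoters (19.2%) and in 3.67% of all promoters. The 5 genes were ASNS, ATF3, CHAC1, SLC3A2 and SLC7A1, and of them SLC3A2 was higher in KPT-330 and the others in CS. The promoter of CHAC1, at chr15:40953221-40953520 on the plus strand of GRCh38.p14, has its match on the antisense strand, 210 to 202 bases before the start site (capitals).
CHAC1: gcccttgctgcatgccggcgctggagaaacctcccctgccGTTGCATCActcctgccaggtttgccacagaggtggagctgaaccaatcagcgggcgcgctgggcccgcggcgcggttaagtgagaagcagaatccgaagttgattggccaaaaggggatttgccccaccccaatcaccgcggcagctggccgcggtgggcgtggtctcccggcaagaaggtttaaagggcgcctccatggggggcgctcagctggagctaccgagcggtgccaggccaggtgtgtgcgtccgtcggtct

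Aminoacyl-tRNA synthetases, which charge tRNAs for translation, were higher in CS in 13 of 20 cases and in KPT-330 in none, with a median of 0.20. Over all tested genes the shares were 20.2% and 22.6%. In KPT-330, 14 of the 20 were lower than in DMSO, where 23.8% of all tested genes were. With library-size scaling 8 were higher in CS and 1 was higher in KPT-330. CARS, for cysteine, was raised by CS and lowered by KPT-330, at 77.0, 71.0 and 65.1 CPM in DMSO, 93.2, 98.6 and 104 in CS and 49.0, 49.3 and 46.6 in KPT-330, with a difference of 1.03 ± 0.07. MARS, for methionine, differed by 0.96 ± 0.08, and shares exon sequence with DDIT3, which moved the other way.

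**Figure D5:**
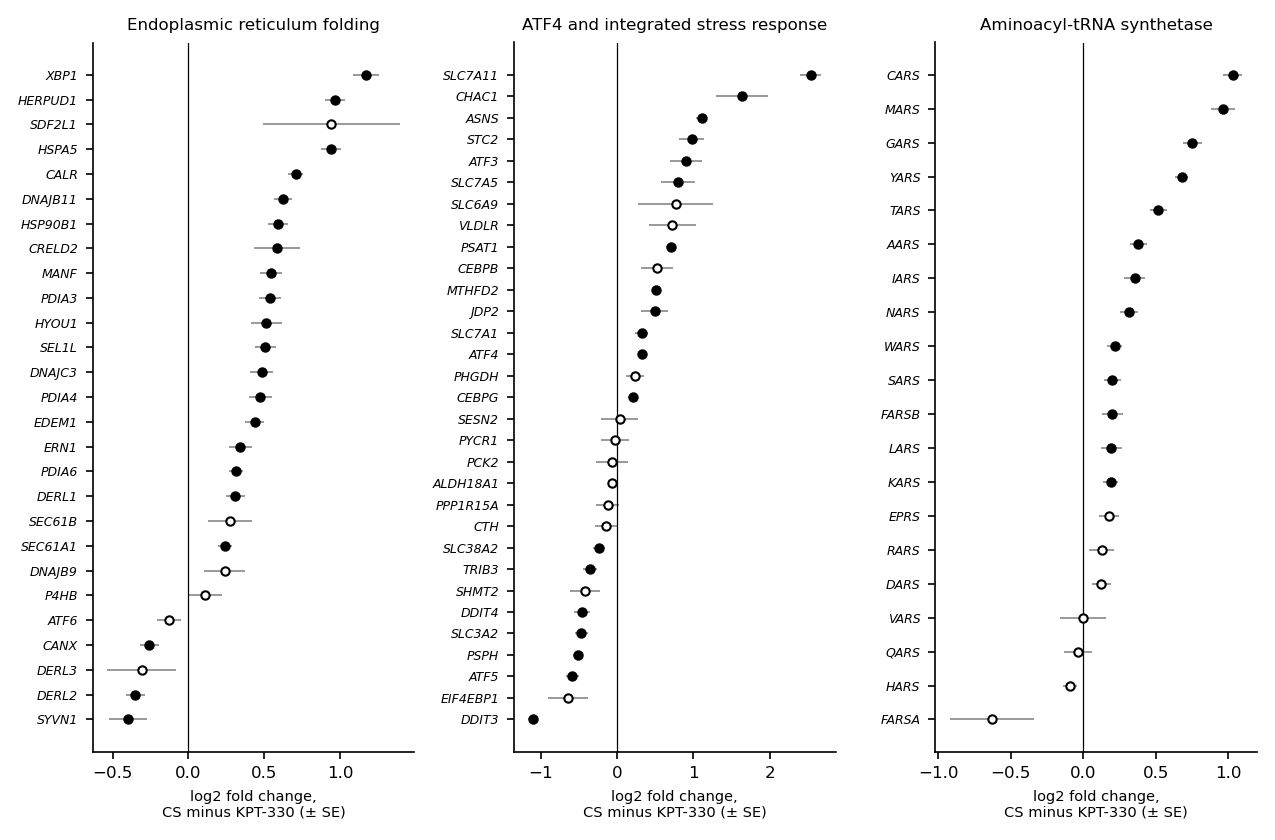
Log2 fold change, CS minus KPT-330, with its SE, for each tested member of 3 lists; filled points passed an adjusted p of 0.05. Most endoplasmic reticulum and synthetase genes lie to the right of 0, while the ATF4 list runs from SLC7A11 at the top to DDIT3 at the bottom.

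Antioxidant and sterol genes were lower with KPT-330. Of 20 targets of NRF2, the main transcription factor of the oxidative stress response, 12 were higher in CS and 1 in KPT-330 (median 0.36). Over all tested genes these shares were 20.2% and 22.6%. Against DMSO, 14 targets were lower in KPT-330 and 2 lower in CS, where 23.8% and 5.13% of all tested genes were. PIR, the iron-binding protein pirin (chromosome X, 15384799 to 15493564), was at 12.6, 11.9 and 11.9 CPM in DMSO, 12.7, 12.6 and 12.1 in CS and 1.48, 1.52 and 1.45 in KPT-330. Its CS and DMSO libraries overlapped and its KPT-330 libraries lay far below them, and the difference was 3.07 ± 0.09 (adjusted p = 2.28e-10). The quinone reductase NQO1 differed by 0.68 ± 0.09 and the haem oxygenase HMOX1, at low levels, by 1.29 ± 0.38, a call that was lost without KPT-330 replicate 2. PRDX1 and FTL, a peroxidase and the ferritin light chain, did not pass. Of 23 genes of cholesterol synthesis and uptake, 16 were higher in CS and 1 in KPT-330 (median 0.46). None of them was called between CS and DMSO, where 3.76% of all tested genes were higher and 5.13% lower. In KPT-330, 15 were lower than in DMSO, where 23.8% of all tested genes were. HMGCS1, at the entry of the mevalonate pathway, differed by 1.13 ± 0.08, MSMO1, a sterol oxidase, by 0.99 ± 0.09 and STARD4, a sterol carrier, by 0.94 ± 0.08; exons of STARD4 overlap STARD4-AS1. HMGCS1 was at 250.2, 282 and 309.9 CPM in DMSO, 322, 306 and 288 in CS and 135, 143 and 139 in KPT-330.

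The antioxidant response element, TGACNNNGC, is the site of NRF2 with small MAF proteins. It was present in 4 of 13 NRF2-list promoters (30.8%) against 13.6% of all promoters, in GCLM, PGD, PIR and TXNRD1, each of them called higher in CS. Both strands were searched. The PIR promoter, at chrX:15493284-15493583 on the minus strand of GRCh38.p14, carries it on the antisense strand from 26 to 34 bases after the start site (capitals).
PIR: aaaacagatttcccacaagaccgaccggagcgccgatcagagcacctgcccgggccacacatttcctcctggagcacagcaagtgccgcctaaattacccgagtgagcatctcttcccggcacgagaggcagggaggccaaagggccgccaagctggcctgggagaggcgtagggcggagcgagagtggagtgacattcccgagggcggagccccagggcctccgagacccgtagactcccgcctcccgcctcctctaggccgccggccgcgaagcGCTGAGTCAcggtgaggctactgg

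Genes of protein production and turnover differed by small amounts in many members. Beside the counts of these lists, 20.2% of all tested genes were higher in CS and 22.6% higher in KPT-330. Cytosolic ribosomal proteins were higher in CS in 48 of 79 genes and in KPT-330 in none, with a median of 0.29, and in each of the 48 DMSO lay nearer to CS. RPSA was at 1454, 1501 and 1479 CPM in DMSO, 1407, 1457 and 1448 in CS and 966, 957 and 967 in KPT-330, a difference of 0.58 ± 0.05; its exons overlap small nucleolar RNA genes. Of 32 proteasome subunits 17 were higher in CS and none in KPT-330 (median 0.28). Against DMSO in the reported fit, 18 members were called lower in CS and 29 lower in KPT-330, where 5.13% and 23.8% of all tested genes were. PSMD1, a base subunit of the regulatory particle, formed 3 steps at 392, 429.6 and 466 CPM in DMSO, 336, 326 and 313 in CS and 179, 179 and 174 in KPT-330, and differed by 0.88 ± 0.06. PSMA3 of the core particle differed by 0.85 ± 0.08, and PSMB4 and PSMC3 did not pass. Nuclear-encoded respiratory chain genes were higher in CS in 34 of 76 and in KPT-330 in 6, though their median of 0.09 became -0.00 with library-size scaling. CYCS, the electron carrier cytochrome c, led with 0.91 ± 0.08. Ribosome biogenesis factors numbered 10 of 36 higher in CS and 1 higher in KPT-330, but 10 and 11 with a GC correction over all libraries and 16 and 7 with one within groups. The counts were 4 and 6 of 28 for autophagy and lysosome genes, and the lists had medians of 0.06 and -0.08; the 6 became 3 without CS replicate 1, CS replicate 2 or KPT-330 replicate 3.

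Transcripts of the mitochondrial genome were mixed. Of 37 tested, 12 were higher in CS and 10 in KPT-330. These were 32.4% and 27.0%, beside 20.2% and 22.6% of all tested genes. DMSO lay nearer to CS in 8 of the 22 called. The 12 and 10 became 10 and 19 with a GC correction over all libraries and 10 and 15 with library-size scaling. The genes higher in KPT-330 were led by tRNAs. MT-TF, the phenylalanine tRNA at positions 577 to 647 of the mitochondrial chromosome, was at 15.2, 15.5 and 17.7 CPM in DMSO, 3.04, 2.15 and 2.52 in CS and 13.2, 13.0 and 11.6 in KPT-330, a difference of -2.30 ± 0.14. MT-TD, the aspartate tRNA, was at 10.4, 11.9 and 12.4, 3.20, 2.27 and 2.11 and 7.96, 8.12 and 7.66 CPM and differed by -1.65 ± 0.14, and the leucine tRNA MT-TL1 by -0.66 ± 0.07. For both MT-TF and MT-TD the CS libraries lay far below DMSO and KPT-330. Mature tRNAs and unprocessed precursors cannot be told apart in these counts. MT-CO1, an oxidase subunit, and MT-RNR2, the large ribosomal RNA, did not pass the test.

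In the list of fatty acid oxidation and carnitine, 6 of 21 were higher in CS and 8 higher in KPT-330. These were 28.6% and 38.1%, beside 20.2% and 22.6% of all tested genes. CPT1A, the mitochondrial gate for long-chain fatty acids, was at 53.7, 58.1 and 53.9 CPM in DMSO, 68.5, 69.3 and 72.3 in CS and 131, 133 and 131 in KPT-330 (-0.91 ± 0.05), raised by both drugs. CD36, a fatty acid importer, was lowered by both, at 32.01, 35.9 and 38.5, 15.8, 15.8 and 14.4 and 7.06, 7.31 and 7.68 CPM (1.06 ± 0.10). Of 24 glycolysis genes, 4 were higher in CS and 3 in KPT-330 (16.7% and 12.5%), with a median of -0.20. The 3 became 11 with the compared groups alone or with a GC correction within groups, 8 with library-size scaling, 7 without CS replicate 3 and 5 without DMSO replicate 1. Hexokinase HK2 was higher in CS by 0.58 ± 0.05 and the enolase ENO2 lower (-1.33 ± 0.17), while GAPDH and ENO1 did not pass.

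NF-kappaB genes, a pathway long tied to salicylate, were mostly lower in KPT-330 than in DMSO. Of 29 subunits and targets, 17 were higher in CS and 4 in KPT-330, with a median of 0.41. Over all tested genes these shares were 20.2% and 22.6%. In CS 1 member was lower than in DMSO and none higher. That was near the low shares of all tested genes, 5.13% and 3.76%, and sets the list apart in no way. In KPT-330 19 were lower than in DMSO and 3 higher, where 23.8% and 24.7% of all tested genes were. BIRC3, an inhibitor of apoptosis that NF-kappaB induces, was at 153, 182 and 199 CPM in DMSO, 227, 214 and 198 in CS and 82.0, 83.2 and 76.1 in KPT-330, a difference of 1.40 ± 0.09 (adjusted p = 1.2e-07). The chemokine CCL4 was at 2.87, 2.81 and 2.50, 2.02, 2.98 and 1.96 and 0.476, 0.515 and 0.787 CPM and differed by 1.95 ± 0.22. TNF, the cytokine itself, was read 32 times in CS, 3 times in KPT-330 and 38 times in DMSO, which gives a ratio of CS to KPT-330 of 10.7 (95% exact interval 3.33 to 54.4, counting error only). The subunit RELA and the inhibitor NFKBIE did not pass, and RELA took the other sign with a GC correction over all libraries. Of 36 interferon-stimulated genes, 5 were higher in CS and 9 in KPT-330, near the 20.2% and 22.6% of all tested genes. OAS1 and IFI44L (1.67 ± 0.14) headed one side and IRF7 (-1.55 ± 0.39) and HERC5 (-1.87 ± 0.42), both at low levels, the other; the call of IRF7 was lost without the filter on low counts.

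Of 23 immediate-early and feedback genes of the MAP kinase pathway, 5 were higher in CS and 8 in KPT-330. These were 21.7% and 34.8%, beside 20.2% and 22.6% of all tested genes. The 8 became 5 without CS replicate 2 or without KPT-330 replicate 3. EGR3, a zinc finger factor, was at 1.81, 1.76 and 1.02 CPM in DMSO, 2.55, 3.02 and 2.66 in CS and 0.209, 0.376 and 0.350 in KPT-330, a difference of 3.13 ± 0.26, and its relative EGR1 differed by 1.24 ± 0.15. MYC, which overlaps CASC11, was at 220.4, 197 and 182 CPM in DMSO, 209, 222 and 242 in CS and 333, 336 and 334 in KPT-330; the KPT-330 libraries stood above the rest, and CS minus KPT-330 was -0.57 ± 0.08. The phosphatase DUSP2 was also higher in KPT-330 (-1.26 ± 0.24). Of 7 regulators of G protein signalling, 3 were higher in KPT-330 (42.9%) and none in CS. RGS2 was lowered by CS and raised by KPT-330, at 16.9, 17.3 and 21.0, 12.7, 11.6 and 10.4 and 31.95, 30.8 and 32.1 CPM (-1.46 ± 0.10), and RGS3 differed by -1.58 ± 0.24.

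MHC class II genes, which present antigen to helper T cells, were mostly higher with either drug than in DMSO, and higher with KPT-330 than with CS. Of 15 tested, 12 were higher in KPT-330 and none in CS, where 22.6% and 20.2% of all tested genes were. The median was -0.35. Against DMSO, 9 were higher in CS and 13 in KPT-330, where 3.76% and 24.7% of all tested genes were. None was lower with either drug. HLA-DQB1, on chromosome 6 at 32659467 to 32668383, was at 12.6, 10.2 and 8.10 CPM in DMSO, 15.1, 15.8 and 20.4 in CS and 38.6, 38.2 and 38.2 in KPT-330. Its groups were 3 steps upwards, with CS minus KPT-330 at -1.16 ± 0.15 and CS minus DMSO at 0.73 ± 0.15. HLA-DOA, which tunes peptide loading, was at 36.1, 33.9 and 34.3, 47.3, 49.9 and 48.5 and 75.4, 74.6 and 74.5 CPM (-0.62 ± 0.05), and HLA-DRB1 differed by -0.66 ± 0.11. The invariant chain CD74 differed by -0.61 ± 0.16 (adjusted p = 0.00768), a call lost without CS replicate 2 and without the filter on low counts. HLA-DMA and RFXAP did not pass. The HLA genes vary in sequence and are close relatives, so reads can be lost or split between them.

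Among B cell genes, BANK1, a scaffold of B cell receptor signalling, was raised by CS and lowered by KPT-330, at 68.2, 73.9 and 87.5 CPM in DMSO, 122.8, 114 and 105 in CS and 60.0, 60.9 and 60.5 in KPT-330 (0.92 ± 0.09). CD72, an inhibitory coreceptor, was raised by both and more by KPT-330, with exons that overlap TESK1, at 36.6, 31.3 and 31.2, 39.2, 42.0 and 47.5 and 69.2, 68.9 and 68.2 CPM (-0.68 ± 0.08). The receptor signalling list had 8 of 27 genes higher in CS and 6 higher in KPT-330. These were 29.6% and 22.2%, beside 20.2% and 22.6% of all tested genes. The 8 became 5 without CS replicate 2 or without KPT-330 replicate 2. The 6 became 2 without CS replicate 2, 3 without CS replicate 1 or any 1 of the KPT-330 libraries, 10 with library-size scaling and 12 with a GC correction within groups. Of 22 B cell transcription factors, 9 were higher in CS and 6 in KPT-330 (40.9% and 27.3%). POU2F2 (0.56 ± 0.08) and the plasma cell factor PRDM1 (0.73 ± 0.16) were higher in CS. PAX5, the B lineage factor, was lower (-0.34 ± 0.09). SOX11, which overlaps a noncoding gene, differed by 0.18 ± 0.06 (adjusted p = 0.0221) and lost its call in 7 alternatives. CCND1, which overlaps ORAOV1, was at 586, 401 and 302 CPM in DMSO, 349.8, 421 and 566 in CS and 539, 535 and 558 in KPT-330, where the libraries overlapped and the difference of -0.29 ± 0.22 did not pass (adjusted p = 0.314). Of 18 homing and adhesion receptors, 5 were higher in CS and 4 in KPT-330 (27.8% and 22.2%, beside 20.2% and 22.6% of all tested genes). Among the 5 was GPR183, which guides B cells in the follicle (0.88 ± 0.08).

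Genes of apoptosis were called in both directions. Of 14 BCL2 family genes, 4 were higher in CS and 5 in KPT-330. These were 28.6% and 35.7%, beside 20.2% and 22.6% of all tested genes. BCL2A1, described above, was among the 4 and had the largest change of the list. The BH3-only genes BBC3 (PUMA), BIK and BMF were higher in KPT-330, with CS minus KPT-330 at -1.96 ± 0.24, -1.50 ± 0.21 and -1.03 ± 0.11. BMF, for example, was at 7.93, 5.97 and 6.91 CPM in DMSO, 7.57, 7.503 and 9.03 in CS and 16.5, 15.8 and 16.8 in KPT-330, and none of these 3 passed between CS and DMSO. BCL2 itself did not separate the drugs, at 167, 162 and 155 CPM in CS and 166, 168 and 162 in KPT-330, both above the 96.2, 110.5 and 109.8 of DMSO; its difference was -0.04 ± 0.06 (adjusted p = 0.663) and passed, lower in CS, with library-size scaling and with a GC correction over all libraries. Of 25 targets of p53, 7 were higher in CS and 9 in KPT-330 (28% and 36%, beside the same shares of all tested genes). DDB2, a damage recognition protein, was at 48.5, 44.8 and 39.6 CPM in DMSO, 44.1, 46.9 and 47.6 in CS and 107, 103 and 109 in KPT-330 (-1.20 ± 0.07), and TP53INP1 (-1.69 ± 0.15, overlapping NDUFAF6) and PHLDA3 (-1.50 ± 0.26) had the same direction. With BBC3 these were the 4 largest changes among the 16 called targets, so none of the 7 higher in CS is named here. The median of the list was 0.02. CDKN1A (p21), at 7.84, 6.70 and 5.53, 9.41, 10.8 and 10.9 and 8.28, 8.04 and 8.54 CPM, did not pass (0.32 ± 0.14, adjusted p = 0.0696), but was higher in CS in 5 alternatives. Of 23 FOXO-type targets, 6 were higher in CS and 10 in KPT-330 (26.1% and 43.5%). The ubiquitin ligase FBXO32 led the 10 (-2.78 ± 0.22). Its levels were 0.616, 0.685 and 0.776, 1.70, 0.641 and 0.996 and 7.92, 7.66 and 7.10 CPM in DMSO, CS and KPT-330.

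Stress chaperones of the heat shock family did not follow one direction. Of 28, 5 were higher in CS and 6 in KPT-330 (17.9% and 21.4%), near the 20.2% and 22.6% of all tested genes. The 6 became 3 without CS replicate 2 or without KPT-330 replicate 1, and 12 with library-size scaling. Against DMSO, 19 were lower in CS and 18 lower in KPT-330, where 5.13% and 23.8% of all tested genes were. HSPA8, the constitutive chaperone HSC70, which hosts small nucleolar RNAs, was at 3456, 3793 and 4130.5 CPM in DMSO, 3091, 2979 and 2749 in CS and 1619.6, 1583 and 1609 in KPT-330 (0.87 ± 0.07). HSPB1, a small heat shock protein, was higher in KPT-330 (-1.28 ± 0.34), a call that was lost without CS replicate 2 and without the filter on low counts. HSP90AA1 and HSP90AB1 did not pass.

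Markers of other cell types were read at low levels and several moved with KPT-330. Of 8 T cell markers 6 were tested, and all 6 were higher in KPT-330; their summed level was 3.22 to 4.35 CPM in CS, 13.8 to 14.6 in KPT-330 and 4.01 to 5.59 in DMSO. LCK, a T cell kinase, made up most of it, at 2.69, 2.77 and 3.61 CPM in CS and 10.1, 10.8 and 10.5 in KPT-330, and CD3E had at most 50 reads in any library. All 4 tested neuronal markers of 9 listed were higher in KPT-330, with a summed level of 107 to 109.5 CPM against 58.9 to 65.2 in CS and 59.6 to 67.1 in DMSO, and NEFM and STMN2 were at 0 in every library. Both tested epithelial markers of 5, EPCAM and KRT8, were higher in KPT-330 (summed level 2.28 to 3.11 CPM, against 0.739 to 0.874 in CS and 0.538 to 0.862 in DMSO), with KRT19 at 0 throughout. The tested fibroblast marker of 5, COL1A1, was higher in KPT-330, with LUM at 0. Of 8 myeloid markers 3 were tested and CD14 was higher in CS. LYZ and CSF1R did not pass. CSF1R had the other direction, with 10, 20 and 23 reads in CS and 40, 34 and 36 in KPT-330. The summed level was 1.53 to 1.92 CPM in CS, 1.40 to 1.68 in KPT-330 and 2.10 to 4.05 in DMSO, with S100A8, S100A9 and MPO at 0. No erythroid marker was tested, and HBB and ALAS2 were at 0. The part of these markers in the results above was not tested.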

How the data were processed

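RNA of 12 JEKO-1 libraries, 3 each for DMSO, CS, KPT-330 and both drugs, was sequenced. The authors deposited a matrix of raw read counts per gene; per the series' design text and the submitters' processing notes, reads were aligned with STAR to hg38 with Ensembl 78 genes, and edgeR with TMM scaling was used. The counting program is not given in the sources used here and strand use is not stated, so overlapping genes were marked from exon positions. The deposited gene lengths entered no test. The text writes the inhibitor also as KPT-300, read here as KPT-330, and 29 gene names had been turned into dates.

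Of 64253 genes, 28113 had no count and 19460 passed filterByExpr. All 12 libraries were fitted together (R 4.3.3, edgeR 4.0.16, limma 3.58.1, TMM, robust quasi-likelihood F-test, two-sided, 8 residual degrees of freedom). P-values were Benjamini-Hochberg adjusted over all tested genes and called at 0.05. The SE of a log2 fold change is its size divided by the root of F, an approximation. Precision is limited by 3 libraries a group. GC content came from GENCODE 44 and was known for 97.05% of tested genes, and promoters came from RefSeq. The tests were checked on simulated counts.

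The members and gene lists were chosen with earlier results of these data known. Genes named were called, did not overlap between the drugs and averaged 5 CPM or more where they were higher: the 12 with the highest and 12 with the lowest fold change, 6 a side with DMSO at the KPT-330 level, and 6 a side with DMSO between the drugs and both drugs called against it. Clone-based and histone names were passed over. From each list up to 4 called members by size and 2 uncalled ones by level were taken, and XPO1, CDKN1A, MYC, CCND1 and SOX11 always. Genes outside this rule are marked, or come from a marker list or the motif search. Alternatives were no filter, a filter of 1 CPM in 3 libraries, DESeq2 size factors, library size alone, DESeq2 1.42.0, the likelihood ratio test, limma voom, a replicate block, the compared groups alone, GC corrections (lowess span 0.3) and leaving out each library. Figures used Python 3.11.15 and matplotlib 3.10.9. A few genes are not reported here.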

Additional observations from a re-analysis of the deposited data

How the results depend on the processing

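The counts of genes higher in CS and higher in KPT-330 stayed within 1.5 times under the alternatives run. Leaving out 1 library gave 3074 to 4382 and 3359 to 4790. By the study's limit, the 53 genes higher in CS became 89 without the filter and 18 with the stricter one (53 to 68 leaving out a library), and the 467 higher in KPT-330 became 189 with the stricter filter (480 to 598 leaving out a library). The 1729 genes changed between CS and DMSO became 1036 with the replicate block, 249 with the compared groups alone, 4114 with the GC correction over all libraries and 4229 within groups. Leaving out 1 library gave 760 (CS replicate 2) to 2582, with 817 for DMSO replicate 2 and 896 for CS replicate 3. Scaling by library size alone gave 8 synthetases (13 before) and 5 B cell receptor genes (8 before) higher in CS, and 12 heat shock genes instead of 6 higher in KPT-330. The GC correction over all libraries gave 15 heat shock and 15 interferon genes (9 before) higher in KPT-330 and 8 homing genes (5 before) higher in CS; within groups it gave 10 heat shock, 16 ribosome biogenesis (10 before) and 10 autophagy genes (6 before). Leaving out 1 CS or KPT-330 library gave 3 to 6 heat shock genes and 5 to 8 immediate-early genes higher in KPT-330 and 5 to 7 B cell receptor genes higher in CS; leaving out 1 DMSO library gave up to 7, 9 and 9. Autophagy genes numbered 3 to 7 over all of these. The cause of these shifts was not tested, apart from the fewer genes that a stricter filter tests.

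Of 237 named genes, 168 kept their side of the threshold in every alternative, 22 called genes lost their call somewhere and 47 uncalled ones gained one. The 12 that changed sign, none called in the reported fit, did so with the GC correction over all libraries: FANCI (-0.10), TOPBP1 (-0.10), HSP90AB1 (-0.10), ETFA (-0.078), NDUFA4 (-0.20), NPM1 (-0.17), UVRAG (-0.078), RELA (0.23), ETS1 (-0.082), IER2 (0.47), P2RY8 (0.23) and RGS19 (0.29). Replicate numbers did not pair the CS and KPT-330 libraries (r of deviations between same-numbered libraries 0.0292, -0.0429 and 0.0508), and with the replicate block the counts were 3603 and 3912. Between same-numbered DMSO and CS libraries r was -0.36, 0.0084 and -0.38. It was 0.40 for DMSO replicate 1 with CS replicate 3 and 0.35 for DMSO replicate 3 with CS replicate 1. The shift with GC content ran from 0.09 to -0.33 over DMSO replicates 1 to 3 and from -0.24 to 0.06 over CS replicates 1 to 3. The cause of this shared variation was not tested. Few of the genes past the study's limit reached 5 CPM, so their fold changes rest on low counts.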

Other observations

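The 3 libraries given both drugs can be placed on the same scale, with 0 at the KPT-330 level and 1 at the CS level. Over the 8325 genes that separated the single drugs their median position was 0.219, and 2822 genes (33.9%) lay nearer to CS. Past the study's limit, 100 of 520 genes lay nearer to CS. Mitotic genes lay beyond KPT-330 (position below 0) in 32 of 33 cases, with a median position of -0.97. Over all 8325 genes, 3088 lay beyond KPT-330 in this sense. All 17 proteasome genes lay nearer to KPT-330. Histone genes lay nearer to CS in 25 of 34 cases (median 0.652), transcripts of the mitochondrial genome in 15 of 22 (0.802) and ribosomal protein genes in 33 of 48 (0.695). BBOX1, which CS lowered, was at 6.44, 6.69 and 7.51 CPM with both drugs, below all CS libraries. NGFR, which KPT-330 raised, was at 30.3, 26.1 and 21.0 CPM, above all KPT-330 libraries, whereas LIX1 was at 1.81, 1.71 and 1.57 CPM, between the single drugs. These positions share the CS and KPT-330 libraries with the comparison itself and are given as values, with no test.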
